A study of Mus musculus with 4 samples.

Results

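Accessible chromatin at 10 genes of limb mesenchyme transcription factors was compared between old and young mouse bone mesenchymal stem cells (MSCs). The genes were Prrx1, Prrx2, Twist1, Twist2, Tbx15, Tbx18, Shox2, Pitx1, Meis1 and Meis2, and their peaks were those that overlapped the gene or the 20 kb upstream of its start in the GENCODE vM21 annotation (GRCm38, the assembly that mm10 names). This gave 83 peaks of the 117282 in the table, with 19 at Meis1, 14 at Meis2, 10 each at Prrx2 and Tbx15, 9 at Twist2, 7 at Prrx1, 5 each at Tbx18 and Pitx1, 3 at Shox2 and 1 at Twist1. Position alone decided which peaks of these genes were taken, but the genes were chosen with earlier results of these data known. ATAC-seq, in which a transposase cuts and tags open DNA, had been performed on 2 samples of MSCs from mice of 18 to 22 months (old) and 2 samples from mice of 3 to 5 months (young). All 4 samples had been cultured at 2% O2 alone. The study's methods name C57BL/6N mice, and for its mice of 3 to 5 months they describe cells grown out of hind-limb bone and sorted as CD45-/Ter-119-/Sca-1+/CD140a+. The labels do not say whether the samples were separate mice or pools, so the tests measure the spread between these samples, which may be technical. In bulk samples, fewer open cells and less open chromatin in each cell cannot be told apart.

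These genes encode DNA-binding proteins that pattern the embryonic limb and many of which stay active in adult connective tissue and bone stroma. Prrx1 and Prrx2 are paired-type homeodomain proteins of limb bud mesenchyme, and Twist1 and Twist2 are basic helix-loop-helix proteins that hold mesenchymal cells back from osteoblast differentiation. Tbx15 and Tbx18 are T-box proteins of limb and girdle mesenchyme, Shox2 is needed for the proximal limb skeleton, Pitx1 gives the hind limb its identity, and Meis1 and Meis2 are TALE homeodomain proteins of the proximal limb that bind DNA together with Pbx proteins.

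The sequences below carry the contrasts described further on: the 250 bases upstream of the Twist1 start, which lie in the most densely open of the 83 peaks, and the central 300 bases of the intronic peak with the smallest p value in Twist2, Prrx2, Meis1 and Meis2, a choice made after the values were seen. All are from mouse (GRCm38; the Twist1 stretch as RefSeq gives it), and all overlapped no annotated exon. Capitals mark matches on either strand to 6 motifs, which were the E-boxes CATATG and CAGATG, the TALE core TGACAG, the homeodomain core TAATTA, the Pitx core TAATCC and the T-box core AGGTGTGA. TGACAG and CAGATG can share the letters CAG.
Twist1 promoter, chr12:33957421-33957670, plus strand: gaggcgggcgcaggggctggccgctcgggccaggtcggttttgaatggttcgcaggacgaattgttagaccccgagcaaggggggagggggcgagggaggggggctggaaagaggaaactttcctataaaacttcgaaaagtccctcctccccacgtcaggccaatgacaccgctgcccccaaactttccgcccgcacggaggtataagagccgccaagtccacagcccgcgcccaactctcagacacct
Twist2 intron, chr1:91839601-91839900, plus strand: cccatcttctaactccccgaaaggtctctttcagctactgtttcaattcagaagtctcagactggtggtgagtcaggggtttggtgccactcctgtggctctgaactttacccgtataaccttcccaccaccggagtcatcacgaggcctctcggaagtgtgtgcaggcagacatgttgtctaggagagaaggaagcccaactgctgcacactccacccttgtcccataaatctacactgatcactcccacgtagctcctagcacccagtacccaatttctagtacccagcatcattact
Prrx2 intron, chr2:30865001-30865300, plus strand: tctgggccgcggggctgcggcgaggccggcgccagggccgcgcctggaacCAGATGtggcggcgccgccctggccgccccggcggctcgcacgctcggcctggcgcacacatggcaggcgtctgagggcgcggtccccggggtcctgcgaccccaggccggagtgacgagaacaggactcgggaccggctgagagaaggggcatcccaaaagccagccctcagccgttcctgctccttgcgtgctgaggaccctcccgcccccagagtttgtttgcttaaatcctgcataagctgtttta
Meis1 intron, chr11:18953851-18954150, plus strand: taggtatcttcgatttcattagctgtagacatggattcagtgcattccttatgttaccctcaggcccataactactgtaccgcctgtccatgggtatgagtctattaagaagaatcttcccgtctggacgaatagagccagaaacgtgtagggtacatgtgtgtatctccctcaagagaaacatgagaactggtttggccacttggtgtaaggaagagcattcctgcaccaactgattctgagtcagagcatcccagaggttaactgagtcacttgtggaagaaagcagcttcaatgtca
Meis2 intron, chr2:115923501-115923800, plus strand: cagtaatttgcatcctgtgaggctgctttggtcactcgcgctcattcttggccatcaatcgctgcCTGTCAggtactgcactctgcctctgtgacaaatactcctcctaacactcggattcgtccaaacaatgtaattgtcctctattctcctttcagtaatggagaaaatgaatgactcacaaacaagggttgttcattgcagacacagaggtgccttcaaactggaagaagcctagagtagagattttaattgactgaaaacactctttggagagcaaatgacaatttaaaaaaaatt
The Prrx2 window held 1 CAGATG, the Meis2 window held 1 TGACAG read on the other strand, and the other 3 held no match.

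The motifs were counted in the same way in the central 300 bases of every peak of at least that width. CATATG was found in 4 of the 83 windows (4.82%) against 5.58% of 113748 windows over the genome, and CAGATG in 18 (21.7%) against 22.7%. TGACAG was found in 16 (19.3%) against 21.3%, TAATTA in 4 (4.82%) against 6.74%, TAATCC in 4 (4.82%) against 9.38% and AGGTGTGA in 0 against 1.09%. The shares at these genes were all below those of all peaks. RefSeq promoters of 250 bases were matched for 8 of the 10 genes, all but Pitx1 and Tbx15. TAATTA was found in the Prrx1 promoter alone, where 4.85% of 32817 promoters held it. CAGATG was found in that of Tbx18 (14.5% of all promoters) and TGACAG in that of Twist2 (15.9% of all promoters).

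The library totals lay between 28259470 and 32559794 counts, and each of the 83 peaks held at least 4 counts in every sample. Values are given below as counts per 10000000 of the library total, divided by a factor per sample (relative log expression, RLE) that sets the median peak alike in the 4 samples. This unit is called the scaled value. Without the factors, that is with the values as deposited, the median log2 fold change of all 117282 peaks (old minus young) was -0.27 instead of 0.00, so each gene is given on both scales. The peaks held 43.8% and 50.3% of the library total in the old samples and 57.5% and 62.9% in the young ones. This share split with age, so the part of age and of library quality in it cannot be told apart. Of the summed values, 6.52% in old replicate 2 and 13.5% to 15.7% in the other samples were on the mitochondrial chromosome. Start-site peaks were present at both genes of the sort, Pdgfra and Ly6a, and at all 6 other stromal genes examined. No peak lay within 1 kb of the starts of the blood genes Ptprc, Cd3e, Itgam and Hba-a1, of Adgre1, Csf1r and Mrc1 among the 4 macrophage genes, or of Cdh5 among the 4 endothelial genes. Summed over its list, the start-peak value per kb was 27.3 to 40.0 in old and 33.3 to 38.3 in young samples for macrophages, where Cd68 alone had a peak, and 49.5 to 52.3 and 59.3 to 59.6 for endothelium. The sums were 12.5 to 25.6 and 12.2 to 20.2 for the 2 of 3 muscle genes with a peak, and 20.3 to 22.1 and 17.8 to 19.3 for the 2 of 3 epithelial genes with one. The part of other cells in the results below was not tested.

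Twist1 was the most densely open of the 10 genes and Pitx1 the least. Per kb of peak, the scaled value of Twist1 averaged 52.7 ± 4.50 (SD over the 4 samples) and lay at 51.0 and 58.8 in the old and 52.7 and 48.1 in the young samples. Its single peak (chr12:33955801-33959600) covered the start and all but the 3′ end of the small gene (chr12:33957671-33959829, plus strand). This peak was denser per kb than 96.6% of all peaks. Below it came Meis1 (24.0 ± 1.89 per kb), Tbx18 (23.8 ± 1.45), Twist2 (22.6 ± 5.18), Meis2 (21.6 ± 1.25) and Shox2 (20.8 ± 2.15), and neighbours in that order overlapped in their 4 values. Prrx2 (17.9 ± 5.61 per kb), Tbx15 (15.7 ± 0.880), Prrx1 (14.9 ± 1.38) and Pitx1 (12.5 ± 4.39) made up the lower end, where each also overlapped the next. The gap between Twist1 and Meis1 was thus larger than the spread between samples, and no other step in the order was.

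**Figure D1:**
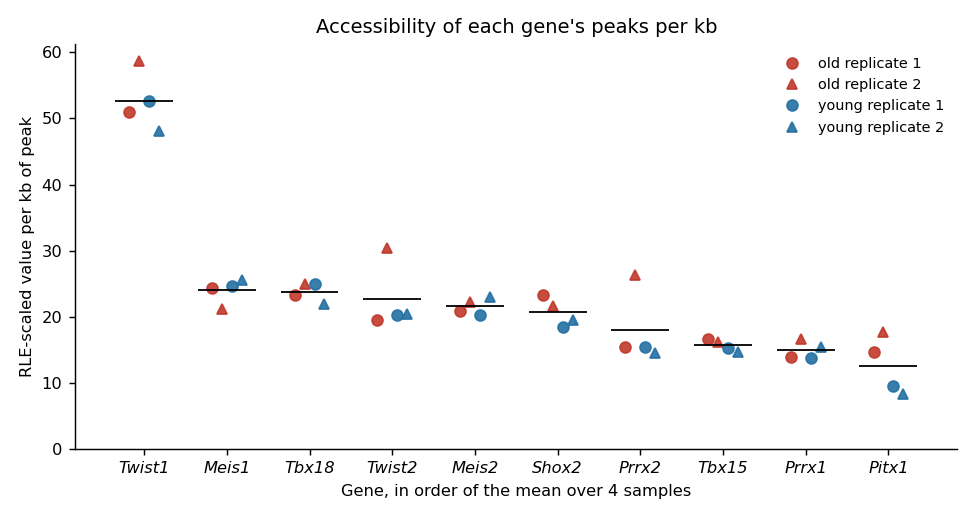
The RLE-scaled value per kb of peak (vertical axis, from 0) is plotted for each of the 10 genes and each of the 2 old (red) and 2 young (blue) samples, with a line at the mean of the 4. Twist1 stands apart near 52.7. The old and young samples are furthest apart at Pitx1, and apart by smaller steps at Prrx2, Tbx15, Shox2 and Meis1. At Twist2 and Prrx2, old replicate 2 alone is high.

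Some of the genes were open over wide stretches. The median width of their peaks was 1600 bp against 1200 bp over all peaks, and 11 of the 83 (13.3%) were 8 kb or wider against 1.56% of all peaks. The widest was a peak of 26.0 kb at Tbx15 (chr3:99239601-99265600), the 110th widest of the table, that began just upstream of the start. Pitx1 and Prrx1 had peaks of 12.3 and 10.8 kb and Shox2 one of 10.7 kb. No peak of Twist1, Twist2, Tbx18 or Meis2 reached 8 kb, and their widest were 3800, 3600, 4700 and 7100 bp. Widths were compared with those of all peaks only, not with those of other developmental regulators. Peaks filled 50.4% of the gene and its upstream 20 kb at Pitx1, 48.0% at Prrx1, 47.8% at Tbx15 and 46.5% at Prrx2, but 11.7% at the far longer Meis2. By the first place that applied, 13 of the 83 peaks were promoter peaks (within 1 kb of the start of a coding transcript of the same gene), 8 were exonic, 46 intronic and 16 upstream. The peaks of each gene share 1 locus and are not independent of each other.

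No peak of the 83 passed the adjusted p of 0.01 in limma's test over all peaks, in either direction, where 0.0307% of all peaks were called lower and 0.0256% higher in old MSCs. At an adjusted p of 0.05, 1 peak was called higher, at Pitx1, and 0 lower (all peaks: 0.351% higher and 0.771% lower). With the values as deposited, the calls at 0.05 were 0 higher and 3 lower, all 3 at Meis1 (all peaks: 0.214% higher and 4.22% lower), a setting chosen after the data were seen. With an unadjusted p under 0.05 there were 12 higher peaks (7.49% of all peaks) and 6 lower ones (8.87% of all peaks), and limma-voom on the recovered counts also called 0 of the 83 at 0.01 (all peaks: 0.081% lower and 0.0418% higher). Without old replicate 1, limma called 12 of the 83 higher and 1 lower at 0.01, where 3.31% and 5.52% of all peaks were. The median log2 fold change over the 83 peaks was 0.09 with an interquartile range from -0.19 to 0.41, beside 0.00 over all peaks with a range from -0.26 to 0.27. Their mean was lower in old MSCs at 38.6% of the 83 peaks and at 49.9% of all peaks, and higher at the other 51 (50.1% of all peaks). As deposited, these shares were 62.7% and 74.6%, and the median over the 83 was -0.18. Both old samples lay above both young samples at 25 peaks (all peaks: 23.2%) and below them at 20 (all peaks: 24.2%), which is 30.1% and 24.1% of the 83. Without old replicate 2, the median was 0.03 and 47.0% of the 83 peaks were lower.

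The peaks at starts leaned one way on the scaled values. Within 1 kb of a coding start of any gene lay 14 of the 83 peaks, the 13 promoter peaks and an upstream peak of Prrx2 at Ntmt1. All 14 had a higher mean in old MSCs, by 0.01 to 1.18 on the log2 scale with a median of 0.20, while 54.7% of the 16213 such peaks of all genes had a lower mean and their median was -0.03. Both old samples were above both young samples at 7 of the 14, against 15.7% of the peaks at all starts. As deposited, however, 8 of the 14 were lower in mean, as were 86.8% of the peaks at all starts. After correction for GC content and width, the start peaks of Tbx18, Meis1 and Meis2 were lower, at -0.059, -0.046 and -0.069. Without old replicate 2, those of Prrx1 and Twist2 were lower, at -0.073 and -0.0049. In both settings the start peaks of the other genes stayed higher. Leaving out other samples also reversed some of them. That of Meis1 was -0.13 without old replicate 1 and -0.035 without young replicate 1. That of Meis2 was -0.032 without young replicate 1, and that of Tbx18 was -0.056 without young replicate 2. The 46 intronic peaks had a median of 0.01, with 14 apart upward and 14 apart downward. That is 30.4% each way, where 23.2% of all peaks were apart upward and 24.2% downward.

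**Figure D2:**
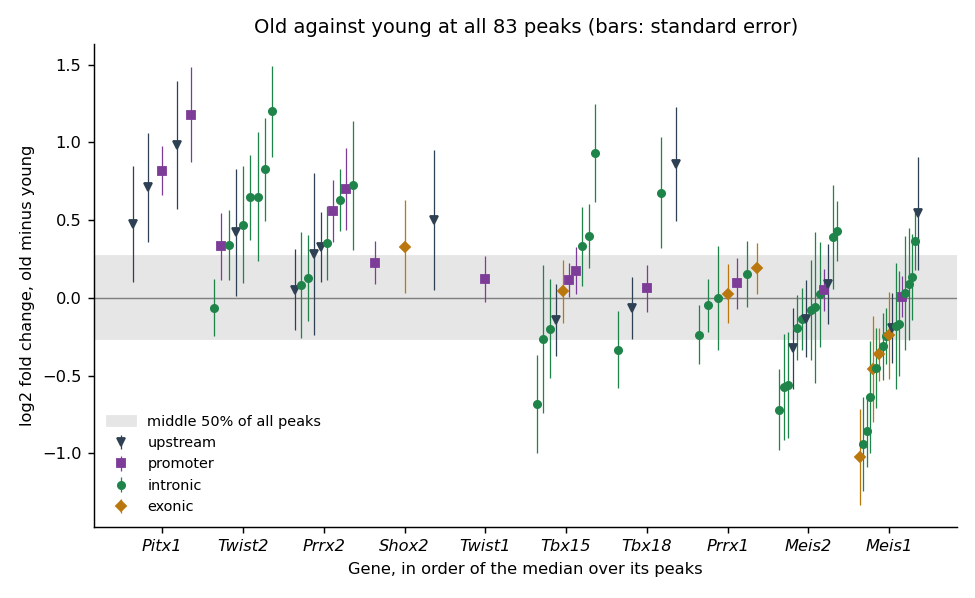
The log2 fold change (old minus young, scaled values) is plotted for each of the 83 peaks by gene, with limma's standard error as the bar, the place of the peak as the symbol and the middle 50% of all peaks in grey. All 5 peaks of Pitx1 lie above 0, while 13 of the 19 peaks of Meis1 lie below it.

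Pitx1, the hind-limb identity factor, showed the clearest difference of the 10 genes. It lies at chr13:55825051-55836192 (minus strand). Summed over its 5 peaks, the scaled value was 229 and 278 in the old samples and 149 and 131 in the young ones, so that the lowest old sample lay well above the highest young one. The old mean was 181% of the young mean, and the log2 fold change was 0.85 ± 0.16 (limma standard error), with an unadjusted p of 0.000421 and a Benjamini-Hochberg adjusted p of 0.283 in limma over 18118 protein-coding genes. As deposited the fold change was 0.56 and the groups were still apart. Without old replicate 1 it was 0.99 and without old replicate 2 it was 0.72, and the gene passed 0.01 in both fits, as did 14.0% and 0.651% of all genes in that direction. Without young replicate 1 or 2 it was 0.93 or 0.76 and did not pass, with an adjusted p of 0.294 or 1.00 in limma. At gene level 0 of the 10 genes passed 0.01 or 0.05 (all genes: 0 lower and 0.011% higher at 0.05), limma-voom also called 0, and Pitx1 was the only one with an unadjusted p under 0.05 (all genes: 3.06% higher, 4.74% lower).

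The wide Pitx1 peak (chr13:55822001-55834300) ran from 1892 bp inside the gene start, over exons, introns and the 3′ end, and was itself within 1 kb of the start of a shorter transcript. Its scaled values were 192 and 224 in the old and 123 and 112 in the young samples, from 372 to 739 counts per sample. The old samples were thus higher than both young samples, with a log2 fold change of 0.82 ± 0.16 and an adjusted p of 0.0217 in limma, and this was the 1 peak past 0.05. When old replicate 1 or old replicate 2 was left out, the fold change was 0.93 or 0.72 and the peak passed 0.01 in both fits (as did 3.31% and 0.428% of all peaks in that direction), in which the lone old sample is assumed to vary as the young ones do. The peak did not pass 0.05 without young replicate 1 (adjusted p 0.221 in limma) or without young replicate 2 (0.483). As deposited it did not pass either, with a fold change of 0.53 and an adjusted p of 0.213.

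The peak over the Pitx1 start (chr13:55835201-55836400) had the largest fold change of any promoter peak of the 10 genes. Its scaled values were 15.4 and 25.8 in the old and 8.25 and 8.27 in the young samples. The log2 fold change was 1.18 ± 0.30 with an adjusted p of 0.0622 in limma. Old replicate 2 was the higher of the old samples, but old replicate 1 was also above both young ones. Without old replicate 1, the fold change was 1.54. Without old replicate 2 it was 0.83 (adjusted p 0.191 in limma), and without young replicate 1 or 2 the adjusted p was 0.303 or 0.451. The 3 peaks upstream, all weak at 2.07 to 12.4 in scaled value, had log2 fold changes of 0.48, 0.71 and 0.98 and were apart in the same direction, none past the adjusted threshold. All 5 peaks also overlapped the noncoding gene Gm47071, and signal of the 2 genes cannot be told apart there.

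Prrx2 had a higher mean than in young cells at all 10 of its peaks, but 1 library decided its size. The gene lies at chr2:30834972-30881251 (plus strand). Its summed scaled value was 475 and 810 in the old and 473 and 448 in the young samples, so that old replicate 1 was level with the young samples and old replicate 2 far above them. The log2 fold change was 0.43 ± 0.21 with an adjusted p of 0.649 in limma. It was 0.06 without old replicate 2 and 0.81 without old replicate 1. As deposited it was 0.14 and the groups overlapped.

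Within Prrx2, 3 peaks were higher with an unadjusted p under 0.05 in limma (7.49% of all peaks). The latter 2 of these were named after their values were seen. The peak just upstream of the annotated start (chr2:30832901-30834900) had scaled values of 23.1 and 32.5 in old and 18.8 and 14.5 in young samples. Its log2 fold change was 0.70 ± 0.26, with an adjusted p of 0.194 in limma. An 8.3 kb peak over a second start inside the gene (chr2:30844701-30853000) had 105 and 168 against 96.0 and 83.9. At both starts the 2 old samples exceeded the 2 young ones, with old replicate 2 the highest. The intronic peak whose centre is printed above (chr2:30863201-30867100) had 77.1 and 109 against 60.1 and 57.9, with a log2 fold change of 0.63 ± 0.20 and an adjusted p of 0.121 in limma. The densest Prrx2 peak (chr2:30869101-30877100), also intronic, was at 157 and 336 in old and 173 and 187 in young samples, so old replicate 1 was the lowest and old replicate 2 the highest of the 4. Its log2 fold change was 0.35 ± 0.24, and -0.19 without old replicate 2. The largest difference among its peaks with groups apart was 0.73 at a weak 500 bp peak (chr2:30842601-30843100). The 3 distal upstream peaks overlapped Asb6 or Ntmt1, and their log2 fold changes were 0.05 to 0.33.

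Prrx1, the related gene on another chromosome, showed no such difference. It lies at chr1:163245119-163313710 (minus strand), with a summed scaled value of 588 and 707 in the old and 586 and 657 in the young samples, which overlapped. The log2 fold change was 0.06 ± 0.13 (adjusted p 0.919 in limma), and it reversed to -0.23 as deposited and to -0.07 without old replicate 2. The 10.8 kb start peak (chr1:163304701-163315500) was at 136 and 174 against 135 and 153, and the densest, over the 3′ end (chr1:163251301-163254700), at 80.0 and 111 against 94.1 and 91.2. Only the intronic peak at chr1:163298501-163303400 had its groups apart, at 57.8 and 63.1 against 72.6 and 70.0, with a log2 fold change of -0.24 ± 0.19 and an adjusted p of 0.572 in limma. After correction for GC content and width this was -0.0065.

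Twist2 followed the pattern of Prrx2, with old replicate 2 high. The gene lies at chr1:91801461-91848028 (plus strand). Its summed scaled value was 303 and 471 in the old and 315 and 316 in the young samples, so old replicate 1 was the lowest of the 4. The log2 fold change was 0.26 ± 0.19 (adjusted p 0.725 in limma) and reversed to -0.03 as deposited and to -0.05 without old replicate 2. Without old replicate 1 it was 0.58. The start peak (chr1:91800301-91803300) was at 67.6 and 110 against 70.0 and 66.7, with a log2 fold change of 0.33. This was -0.0049 without old replicate 2 and 0.67 without old replicate 1.

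The introns of Twist2 held the largest fold change of the 83 peaks. The 1500 bp peak at chr1:91839001-91840500, 38.3 kb into the gene, was at 18.8 and 31.9 in the old and 9.90 and 10.3 in the young samples, from 30 to 105 counts. Both old samples were above both young ones, with a log2 fold change of 1.20 ± 0.29 and an adjusted p of 0.0523 in limma. The fold change was 0.93 as deposited, and 0.84 to 1.57 when each sample was left out in turn. In all, 5 of the 9 Twist2 peaks were apart upward and 0 downward (all peaks: 23.2% and 24.2%), while the densest (chr1:91822301-91825900), at 115 and 177 against 149 and 149, had a log2 fold change of -0.06 that reversed to 0.25 without old replicate 1.

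Twist1 differed little. Its single peak was at 194 and 223 in the old and 200 and 183 in the young samples, which overlapped, and the log2 fold change of 0.12 ± 0.15 (adjusted p 0.733 in limma over all peaks) reversed to -0.17 as deposited.

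Tbx15 and Tbx18, the T-box genes, were nearly level between the ages as sums and mixed within. Tbx15 (chr3:99240381-99354259, plus strand) had the highest sum of the 10 genes, at 1064 and 1031 in the old and 974 and 939 in the young samples. The groups were apart upward by a small step, a log2 fold change of 0.13 ± 0.10 (adjusted p 0.728 in limma), which reversed to -0.16 as deposited with the groups apart downward. The 26.0 kb start peak was at 632 and 657 against 599 and 591, with a log2 fold change of 0.11 ± 0.11 that also reversed as deposited, to -0.17. Inside the gene, 2 weak intronic peaks went opposite ways. The peak at chr3:99271701-99273200 was at 21.4 and 14.0 in old and 6.93 and 10.6 in young samples (log2 fold change 0.93 ± 0.32, adjusted p 0.144 in limma), and the one at chr3:99311901-99312700 was at 8.13 and 12.1 against 21.1 and 13.0 (-0.68 ± 0.31, adjusted p 0.288). The latter was named after its values were seen. The single upstream peak overlapped Wars2 and was at 29.1 and 29.1 against 36.3 and 28.6.

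Tbx18 (chr9:87702800-87731260, minus strand) summed to 247 and 264 in the old and 265 and 232 in the young samples. The ranges nearly coincided, and the log2 fold change of 0.04 ± 0.14 (adjusted p 0.943 in limma) reversed to -0.24 as deposited. Its start peak (chr9:87729001-87733700), which was also its densest, was at 164 and 174 against 175 and 149. A weak peak 14741 bp upstream (chr9:87746001-87746600) had its groups apart, at 8.13 and 6.98 against 3.30 and 4.13, with a log2 fold change of 0.86 ± 0.37 and an adjusted p of 0.25 in limma from 10 to 23 counts.

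Shox2 (chr3:66971727-66981771, minus strand) was nearly all 1 wide peak over the start (chr3:66976301-66987000), which reached into Rsrc1. That peak was at 277 and 253 in the old and 220 and 233 in the young samples, so both old samples were higher, with a log2 fold change of 0.23 ± 0.14 and an adjusted p of 0.428 in limma. It reversed to -0.06 as deposited. The gene's sum was at 294 and 273 against 233 and 247, with a log2 fold change of 0.24 ± 0.13 (adjusted p 0.662 in limma) that was -0.05 as deposited.

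At Meis1, 13 of the 19 peaks had a lower mean in old MSCs, as had 9 of the 14 at Meis2, and the start peak of neither gene was among them. The gene lies at chr11:18879817-19018985 (minus strand), and its summed scaled value was 827 and 720 in the old and 836 and 867 in the young samples. Both old samples were below both young ones, old replicate 1 only just, and the log2 fold change was -0.14 ± 0.11 (adjusted p 0.739 in limma) and -0.43 as deposited. It was -0.03 without old replicate 2, and -0.24 and past 0.01 without old replicate 1 (as were 11.1% of all genes in that direction). The 9.7 kb start peak (chr11:19012001-19021700) was at 369 and 306 in the old and 325 and 343 in the young samples, with a log2 fold change of 0.01 ± 0.13 that reversed to -0.28 as deposited and to -0.13 without old replicate 1.

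At 12 of the 19 Meis1 peaks the 2 old values lay under the 2 young ones, against 24.2% of all peaks, and at 1 they were above. With the values as deposited these counts were 14 (43.5% of all peaks) and 0 (7.56% of all peaks). The lowest adjusted p was at the intronic peak whose centre is printed above (chr11:18953501-18954500, 65.0 kb into the gene), which was named after its values were seen. It was at 24.8 and 20.3 in the old and 42.2 and 40.7 in the young samples, from 58 to 138 counts, with a log2 fold change of -0.86 ± 0.23 and an adjusted p of 0.0705 in limma. The largest difference was at an exonic peak near the 3′ end (chr11:18883301-18884000), at 6.85 and 6.07 against 13.5 and 14.8, with a log2 fold change of -1.02 ± 0.31 and an adjusted p of 0.101. Both old samples were lower at these 2 peaks, which did not pass the threshold over all peaks. As deposited, their adjusted p was 0.0144 and 0.0228. Another intronic peak (chr11:19007401-19008400, named after its values were seen) was at 7.71 and 6.98 against 16.2 and 13.9, with a log2 fold change of -0.94 and an adjusted p of 0.123 in limma, and of -1.20 and 0.0299 as deposited. The densest peak of the gene (chr11:18988401-18990200), also intronic, was at 83.5 and 69.2 against 90.8 and 89.8 (log2 fold change -0.25 ± 0.18). One intronic peak went the other way (chr11:18948601-18950700, named after its values were seen), at 80.5 and 81.3 against 59.4 and 65.8, with a log2 fold change of 0.37 ± 0.19 and an adjusted p of 0.337. Each old sample was also compared with the mean of the young samples at every peak on the log2 scale. The median difference over chromosome 11 exceeded that over all autosomes by 0.17 in old replicate 2 and by 0.025 in old replicate 1. The part of this in the Meis1 values was not tested.

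Meis2 was level as a sum. The gene lies at chr2:115863064-116065839 (minus strand), with scaled values of 544 and 577 in the old and 526 and 599 in the young samples, which overlapped, and a log2 fold change of 0.00 ± 0.12 (adjusted p 0.996 in limma; -0.29 as deposited). Its start peak (chr2:116061101-116068200) was at 249 and 261 against 234 and 260. Of its 14 peaks, 5 were apart downward and 2 upward (all peaks: 24.2% and 23.2%). The largest of these differences was at an intronic peak 142 kb into the gene (chr2:115923101-115924200). Its central 300 bases, printed above, held TGACAG, as did 21.3% of the windows of all peaks. The peak was at 12.8 and 16.7 in the old and 22.8 and 26.9 in the young samples. Both old samples were lower, with a log2 fold change of -0.72 ± 0.26 and an adjusted p of 0.176 in limma.

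**Figure D3:**
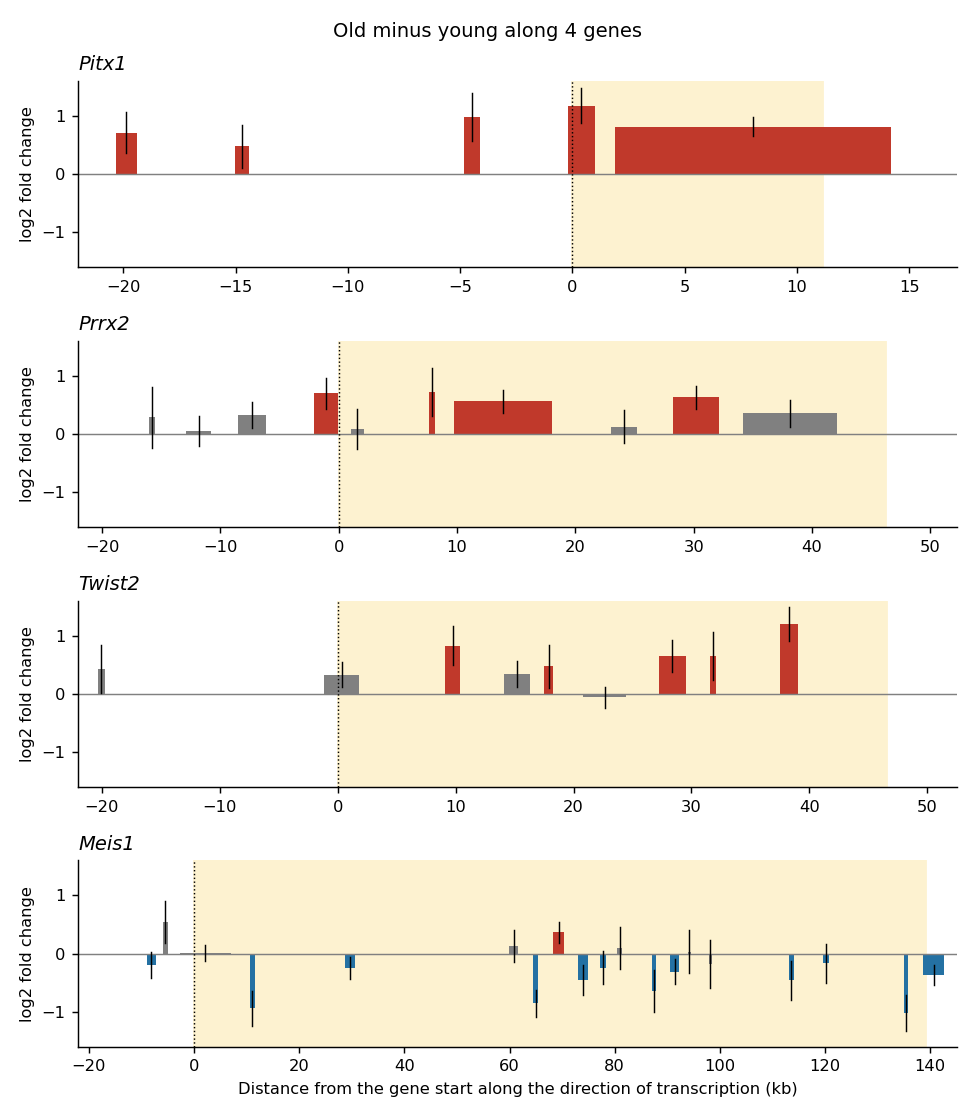
Bars show the log2 fold change (old minus young, scaled values) of each peak by its distance from the gene start in kb, with the bar as wide as the peak, the gene body shaded and limma's standard error as a black line. Red and blue bars are peaks with both old samples above or below both young ones, which were 5 and 0 at Pitx1, 4 and 0 at Prrx2, 5 and 0 at Twist2, and 1 and 12 at Meis1.

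A ratio of 2 genes within 1 sample does not depend on how the samples were scaled. The 4 pairs of related genes were therefore compared as the log2 ratio of their values per kb of peak. Prrx2 over Prrx1 was 0.16 and 0.66 in the old and 0.15 and -0.09 in the young samples, which left the groups just apart, with old replicate 1 level with young replicate 1. The difference of the means was 0.38, and the exact two-sided permutation p was 0.33, the smallest that 2 samples against 2 can give. Twist2 over Twist1 was -1.39 and -0.95 against -1.38 and -1.24, and Meis2 over Meis1 was -0.22 and 0.06 against -0.29 and -0.15. In both of these the old samples spanned the young ones or overlapped them. Tbx18 over Tbx15 was 0.49 and 0.63 against 0.71 and 0.58, which also overlapped.

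**Figure D4:**
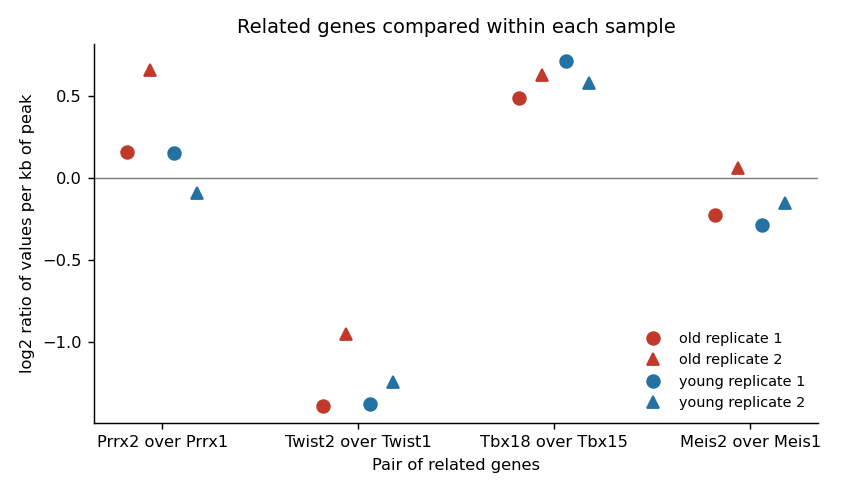
The log2 ratio of the values per kb of peak (vertical axis) is plotted for 4 pairs of related genes in each of the 4 samples. The 2 old and 2 young samples are separated, narrowly, for Prrx2 over Prrx1 alone, and old replicate 2 has the highest ratio in 3 of the 4 pairs.

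Pitx1 acts in the hind limb beside genes that mark limb position, and these were read in the same way. Tbx4, its hind-limb target, had no start peak and summed to 35.1 and 52.2 in the old and 38.0 and 34.0 in the young samples (log2 fold change 0.25 ± 0.23). Isl1, which acts early in the hind-limb field, was at 97.2 and 65.2 against 139 and 130, with a log2 fold change of -0.74 ± 0.21 and an adjusted p of 0.471 in limma, and both old samples were lower. The forelimb gene Tbx5 was at 68.9 and 61.0 against 83.8 and 85.9 (-0.38 ± 0.17, adjusted p 0.642 in limma), and Hand2, of the posterior limb bud, at 44.5 and 37.0 against 49.2 and 40.7. None of the 4 passed the threshold.

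Beside the 10 genes, 33 other limb and mesenchyme regulators were listed, of which 32, all but Tcf21, had a peak. None passed an adjusted p of 0.05 in limma at gene level, and limma-voom called 0 of all genes. With an unadjusted p under 0.05 in limma there were 3 lower and 1 higher (all genes: 4.74% lower and 3.06% higher). Their median log2 fold change was 0.07, beside 0.13 for the 10 genes and -0.01 for all 18118. Both old samples were above both young ones at 6 of the 32 and below them at 4, and at 4 and 1 of the 10 genes themselves (all genes: 15.6% above, 25.4% below). As deposited, these counts over the 10 genes were 1 above and 3 below (all genes: 1.5% and 53.6%). The mean of the 10 genes was higher at 8 and lower at 2 (all genes: 47.4% and 52.6%). Of 15 partners of these factors (the E proteins that pair with Twist, the Id proteins that compete for them, and Pbx and other TALE proteins that pair with Meis) 0 passed and 0 had an unadjusted p under 0.05 in limma, with a median of 0.06 and a range from -0.06 to 0.31. As deposited, the 3 medians of the lists and the 10 genes were -0.22, -0.23 and -0.16, where that of all genes was -0.30.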

How the data were processed

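ATAC-seq values of 2 old and 2 young samples of mouse bone MSCs were analysed. The authors deposited 1 value per peak and sample, named RPKM and read here as a score: a count per 10000000 of the library total, with no division by peak length. In each sample 100% of the values gave whole counts at a tolerance of 0.01. The submitters' processing notes name Bowtie2, Picard and mm10. The paper describes chromstaR peaks, RLE factors and a false discovery rate of 0.01 for cells grown at different oxygen levels. How the 2 age groups were handled is not given apart from this in the sources used here.

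Values were divided by RLE factors, and the fit was made on log2(value + 1) over all 117282 peaks with limma 3.58.1 (lmFit, then eBayes with trend and robust moderation; R 4.3.3). P values were adjusted over the whole table after Benjamini and Hochberg, with a threshold of 0.01. Gene values were sums over peaks for 18118 protein-coding genes, fitted alike. Fold changes on this log2 scale understate those of weak peaks. Python 3.11.15, pandas 2.3.3 and matplotlib 3.10.9 were used, and the fit was tested on simulated data. The genes, lists and tests were chosen with earlier results of these data known. The peaks named for each gene were the one at the start, the densest per kb, the one with the largest fold change among those with groups apart, and any past an adjusted p of 0.05. Peaks outside this rule are marked as named after their values were seen, or given for a place or an overlap. With 2 samples against 2, the smallest exact permutation p is 0.33. The counts printed bear on counting error only. The summed start-peak value of the blood list and some of its genes are not reported here. Alternatives were other scalings, pseudocounts 0.1 and 5, a filter on weak peaks, smaller windows, a GC and width correction, a replicate block, limma-voom, and leaving out each sample.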

Additional observations from a re-analysis of the deposited data

How the results depend on the processing

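Of the 108 other values of the 6 overall results (the counts of the 83 peaks and 10 genes past an adjusted p of 0.01, the median and the share lower), 93 stayed within the limits set and 15 moved. Of 412 values of single genes and named peaks, 360 kept their direction and their side of 0.01, 14 kept their direction and now passed it, and 38 changed sign, and for all of these the cause was not tested. As deposited, the median was -0.18 and 62.7% of the peaks were lower. Without chromosome 11, which leaves out the 19 peaks of Meis1, they were 0.16 and 29.7%. At an adjusted p of 0.05, 1 peak was higher, and with the values as deposited 3 were lower and 0 higher, a setting chosen after the data were seen. Leaving out each sample gave 0 to 1 peaks lower and 0 to 12 higher, 0 to 1 genes lower and 0 to 3 higher, a median from 0.029 to 0.14 and a share from 39.8% to 47.0%. The highest counts came without old replicate 1, where the 12 higher peaks were 5 at Prrx2, 4 at Twist2, 2 at Pitx1 and 1 at Meis2 and the lower one was at Meis1, and where 3.31% of all peaks were called higher and 5.52% lower.

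As deposited, the sums reversed to -0.23 for Prrx1, -0.17 for Twist1, -0.028 for Twist2, -0.16 for Tbx15, -0.24 for Tbx18 and -0.049 for Shox2, and the start peaks to -0.19 for Prrx1, -0.17 for Twist1, -0.17 for Tbx15, -0.23 for Tbx18, -0.061 for Shox2, -0.28 for Meis1 and -0.24 for Meis2, as did the peak at the 3′ end of Prrx1, to -0.26. The correction for GC and width reversed the sum of Tbx18 to -0.059 and the start peaks of Tbx18 to -0.059, of Meis1 to -0.046 and of Meis2 to -0.069, and the filter on weak peaks reversed the sum of Tbx18 to -0.0027. The sum of Meis2 reversed to 0.029 after quantile normalization, to 0.019 with equal total signal and to 0.012 with 5 kb upstream or the gene body alone. With each sample left out, the sums ran from -0.069 to 0.19 for Prrx1, -0.048 to 0.58 for Twist2, -0.054 to 0.13 for Tbx18 and -0.10 to 0.086 for Meis2. In the same fits the peaks ran from -0.073 to 0.27 at the start and -0.20 to 0.26 at the 3′ end of Prrx1, -0.19 to 0.90 at the densest of Prrx2, -0.0049 to 0.67 at the start and -0.36 to 0.25 at the densest of Twist2, -0.056 to 0.17 at the start of Tbx18, -0.13 to 0.15 at that of Meis1 and -0.032 to 0.12 at that of Meis2.

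With the replicate number as a replicate block, 2 peaks were higher past 0.01, the wide Pitx1 peak and the Twist2 peak 38.3 kb into the gene, where 0.309% of all peaks were; it changed no other call at 0.01. Deviations of same-numbered samples from their group means had a correlation of -0.0993 across peaks, so the numbers were not taken to pair the samples. With 2 samples per group, differences near the spread between libraries are not detectable, and the weakest of the 83 peaks held 4 counts in 1 sample.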
